A study of Mus musculus with 11 samples.

Results

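Mammalian apparent LTR retrotransposon (MaLR) copies of the mouse genome were analysed in RNA of whole testes at postnatal day 5. The copies were the rows of the deposited table of transposable element (TE) copies whose family was ERVL-MaLR, kept where a copy was above 0 transcripts per 1000000 (TPM) in at least 1 library. These were 57560 of 454918 MaLR copies, out of 578629 detected TE copies and 3725827 TE copies in the whole table. By the prefix of the subfamily name, 25854 of 185387 MT copies, 23197 of 184967 ORR1 copies and 8509 of 84564 MLT copies were detected, and 0 copies had another prefix. LTRs made up 51183 of the detected copies, and 6377 were internal sequences, whose names end in -int. The tables of read counts per subfamily held 101 MaLR subfamilies, 20 MT, 29 ORR1 and 52 MLT, while 7 of the 108 subfamilies of the copy table had no row there.

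The 11 libraries came from 4 genotypes on a C57Bl6/J background. There were 2 libraries of wild-type testes (WT), 3 of Dnmt3C KO/KO testes (Dnmt3C KO), 3 of Nrf1 fl/KO; Ddx4-Cre testes (Nrf1 cKO) and 3 of testes with both changes (dKO, that is Dnmt3C KO/KO combined with Nrf1 fl/KO and Ddx4-Cre). The Ddx4 promoter drives Cre in germ cells, so the somatic cells of the Nrf1 cKO and dKO testes kept the floxed allele. The comparisons asked whether MaLR RNA depends on DNMT3C, on NRF1, and on NRF1 where DNMT3C is missing. Nothing in the labels says that replicates were pooled or that a replicate number marks a litter, so p-values measure the spread between these libraries.

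MaLR elements are non-autonomous relatives of the ERVL retroviruses: they lack the genes for their own reverse transcriptase and have spread with enzymes made by others. The MT and ORR1 groups are specific to rodents, with MTA and ORR1A among their youngest branches, whereas MLT elements are older and shared with other mammals. MT LTRs are known as promoters in mouse oocytes and early embryos, where they start chimeric transcripts of host genes. DNMT3C is the rodent DNA methyltransferase that methylates the promoters of young retrotransposons in fetal male germ cells, and NRF1 is a transcription factor whose binding is blocked by DNA methylation. In whole-tissue RNA, a read on an LTR can come from the LTR's own promoter or from the unspliced or spliced transcript of a gene that contains it.

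The depth of a library was between 26063590 and 39365841 counts over genes and TE subfamilies. Of these, 1.60 to 3.07% fell on TE subfamilies, and between 43757 and 85749 counts per library fell on MaLR subfamilies. The lowest TE share was that of Nrf1 cKO replicate 1. Neither targeted gene checks the labels in whole testis: Nrf1 was between 44.4 and 61.2 counts per 1000000 (CPM) and Dnmt3c between 2.98 and 4.97 CPM over the libraries, and for both genes each mutant genotype overlapped WT. For Nrf1, the 3 dKO libraries, at 57.1, 61.2 and 60.1 CPM, lay above the 3 Dnmt3C KO libraries, at 44.4, 56.6 and 50.5. Germ cell markers were present in every library, 28 of 28 above 0, and so were 12 of 12 Sertoli cell markers, since the tissue holds both. The mean log2 CPM of the germ cell markers was 4.24 and 3.82 in WT, 4.72, 3.97 and 4.09 in the Dnmt3C KO, 3.38, 2.40 and 2.76 in the Nrf1 cKO and 3.96, 3.67 and 2.74 in the dKO, and WT exceeded Nrf1 cKO in every pair of libraries. Fewer germ cells and less RNA per germ cell cannot be told apart in these data.

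Some detected MaLR copies hold the start of an annotated gene, and a few of these sequences are shown because the question of LTR promoter activity turns on them. In the RefSeq table of 32851 promoters on GRCm38.p6, which gives 250 bases before and 50 after each start, 139 promoters of 135 genes started inside a detected MaLR copy on the same strand. Of these promoters, 76 lay in ORR1, 49 in MT and 14 in MLT copies, and 16 of the genes had a name other than a provisional number. The 4 printed below were chosen after their values were seen: the copy with the most reads (Mtf2), for each rodent group the LTR with the most reads among windows wholly inside a copy (Gm32443 for MT, Gm31791 for ORR1), and the protein-coding gene Spin1, which encodes a chromatin reader. Capitals mark bases inside the MaLR copy, lower case the flanking sequence.
Gm32443, starting in MTC_dup19967, chr12:31085085-31085384, minus strand: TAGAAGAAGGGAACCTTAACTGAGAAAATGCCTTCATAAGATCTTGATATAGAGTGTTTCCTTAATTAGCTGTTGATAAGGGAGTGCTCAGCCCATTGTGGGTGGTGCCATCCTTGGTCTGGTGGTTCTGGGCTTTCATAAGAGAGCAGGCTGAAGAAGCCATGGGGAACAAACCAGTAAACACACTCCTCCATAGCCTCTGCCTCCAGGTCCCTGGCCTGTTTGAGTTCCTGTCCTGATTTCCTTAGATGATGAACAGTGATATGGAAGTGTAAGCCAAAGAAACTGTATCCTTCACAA
Gm31791, starting in ORR1A4_dup1055, chr2:152645505-152645804, plus strand: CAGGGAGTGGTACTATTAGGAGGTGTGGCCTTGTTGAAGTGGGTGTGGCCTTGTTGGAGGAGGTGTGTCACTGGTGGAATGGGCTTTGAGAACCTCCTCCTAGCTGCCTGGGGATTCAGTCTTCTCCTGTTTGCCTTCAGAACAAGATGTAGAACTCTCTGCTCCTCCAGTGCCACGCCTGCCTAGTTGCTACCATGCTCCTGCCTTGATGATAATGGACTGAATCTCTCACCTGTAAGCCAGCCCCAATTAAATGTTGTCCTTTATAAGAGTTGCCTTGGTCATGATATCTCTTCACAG
Spin1, starting in MTB_dup4668, chr13:51132547-51132846, plus strand: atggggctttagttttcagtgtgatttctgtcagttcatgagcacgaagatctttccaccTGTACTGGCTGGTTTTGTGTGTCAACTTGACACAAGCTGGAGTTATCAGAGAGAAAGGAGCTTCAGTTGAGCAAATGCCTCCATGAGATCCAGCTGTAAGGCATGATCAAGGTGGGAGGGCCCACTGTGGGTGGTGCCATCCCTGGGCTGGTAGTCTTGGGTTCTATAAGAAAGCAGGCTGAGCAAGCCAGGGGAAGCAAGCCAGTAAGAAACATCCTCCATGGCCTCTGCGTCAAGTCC
Mtf2, starting in ORR1B1-int_dup863, chr5:108077915-108078214, plus strand: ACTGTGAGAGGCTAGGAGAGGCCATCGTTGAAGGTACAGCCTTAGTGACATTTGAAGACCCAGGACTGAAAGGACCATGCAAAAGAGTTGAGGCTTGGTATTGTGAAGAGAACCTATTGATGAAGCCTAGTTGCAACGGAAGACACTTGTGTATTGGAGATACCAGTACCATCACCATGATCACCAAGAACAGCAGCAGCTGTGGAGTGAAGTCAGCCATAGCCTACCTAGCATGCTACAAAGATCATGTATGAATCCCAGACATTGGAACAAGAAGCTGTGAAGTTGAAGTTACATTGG

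The Gm32443, Gm31791 and Mtf2 windows lay wholly inside a copy, and 240 of the 300 bases did so at Spin1. The letters GCATGCG, the middle of the palindrome that NRF1 binds, were searched on both strands and were in 3 of the 139 promoters (2.16%), against 3.58% of all promoters in the table. In 1 of the 3 they lay inside the MaLR copy. The TATA box letters TATAAA, on either strand, were in 25 of 139 (18.0%) against 13.6% of all, and in 14 of the 25 they lay inside the MaLR copy. The Gm31791 window was counted for TATAAA on the strand opposite to the gene only, at bases after the start. These counts describe the letters of the windows only.

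Reads on these promoter copies were present in all 4 genotypes. Reads per copy were recovered from the TPM and the copy length, which gave whole numbers for 100% of the values of each library within a tolerance of 0.001. MTC_dup19967 at Gm32443 had 40 and 35 reads in WT, 30, 22 and 30 in the Dnmt3C KO, 16, 44 and 32 in the Nrf1 cKO and 55, 12 and 50 in the dKO. ORR1A4_dup1055 at Gm31791 had 15 and 13 reads in WT, 14, 7 and 6 in the Dnmt3C KO, 11, 10 and 5 in the Nrf1 cKO and 13, 25 and 12 in the dKO. These read numbers are not scaled to depth. In TPM, all 4 genotypes overlapped each other at both copies. MTB_dup4668 at Spin1 was shallower, with 7 and 9 reads in WT, 10, 5 and 7 in the Dnmt3C KO, 4, 6 and 3 in the Nrf1 cKO and 8, 2 and 5 in the dKO. ORR1B1-int_dup863, in which a transcript of Mtf2 starts, had 151 and 167 reads in WT, 85, 66 and 116 in the Dnmt3C KO, 28, 74 and 58 in the Nrf1 cKO and 98, 82 and 80 in the dKO. Mtf2 encodes an accessory subunit of Polycomb repressive complex 2. In TPM this copy averaged 14.5 ± 2.79 over the 2 WT libraries (SD) and 7.89 ± 2.07 over the 3 Nrf1 cKO libraries (SD), and the ranges did not overlap. limma gave a log2 fold change of -0.82 (SE 0.43) with an adjusted p of 0.804 for that comparison, so the difference did not pass. The dKO libraries, at 8.90, 9.62 and 9.77 TPM, also lay below both WT libraries, and Dnmt3C KO overlapped WT. The gene Mtf2 itself was at 69.1 and 87.3 CPM in WT and 49.2, 49.4 and 57.4 in the Nrf1 cKO. In the dKO, at 73.5, 70.0 and 64.9 CPM, the gene overlapped WT. Whether the reads on the copy follow those of the gene was not tested.

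MaLR subfamilies together took 6.35 to 8.11% of the TE counts of a library. Averaged per genotype, MT subfamilies took 3.57% ± 0.21 of TE counts in WT (SD, n = 2), 3.43% ± 0.15 in the Dnmt3C KO, 3.76% ± 0.17 in the Nrf1 cKO and 3.42% ± 0.35 in the dKO (SD, n = 3 each). ORR1 subfamilies took 3.25% ± 0.16, 3.19% ± 0.15, 3.41% ± 0.12 and 3.16% ± 0.30 in the same order, and MLT subfamilies 0.686% ± 0.042, 0.625% ± 0.089, 0.645% ± 0.018 and 0.625% ± 0.093. For each prefix as a whole, the ranges of all 4 genotypes overlapped. The internal sequences of MT on their own took 1.16% of TE counts in the lowest and 1.32% in the middle Nrf1 cKO library, and between 1.06 and 1.14% in the 8 libraries of the other genotypes. As a share of all counts they were lower in the 3 Nrf1 cKO libraries, at 0.0230, 0.0256 and 0.0318%, than in WT, at 0.0334 and 0.0320%. Those of ORR1 lay above both WT libraries in the Nrf1 cKO, at 1.22, 1.14 and 1.23% against 1.07 and 1.11%, and overlapped dKO. These splits of the shares were not tested. The ERVK family, which holds the IAP elements, took a share that differed by genotype on this scale, at 12.97 and 12.4% of TE counts in WT, 18.0, 16.4 and 15.5% in the Dnmt3C KO, 15.4, 15.2 and 16.2% in the Nrf1 cKO and 15.7, 13.97 and 15.4% in the dKO. Both WT libraries lay below all others there.

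As a share of all counts, the order changed, and the TE total itself differed between libraries. MaLR subfamilies took 0.239 and 0.210% of all counts in WT, 0.213, 0.159 and 0.176% in the Dnmt3C KO, 0.130, 0.166 and 0.189% in the Nrf1 cKO and 0.235, 0.173 and 0.184% in the dKO. All 3 Nrf1 cKO libraries lay below both WT libraries, while Dnmt3C KO and dKO overlapped WT. The share of counts on all TE subfamilies was likewise 3.07 and 2.91% in WT and 1.60, 2.21 and 2.42% in the Nrf1 cKO.

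**Figure D1:**
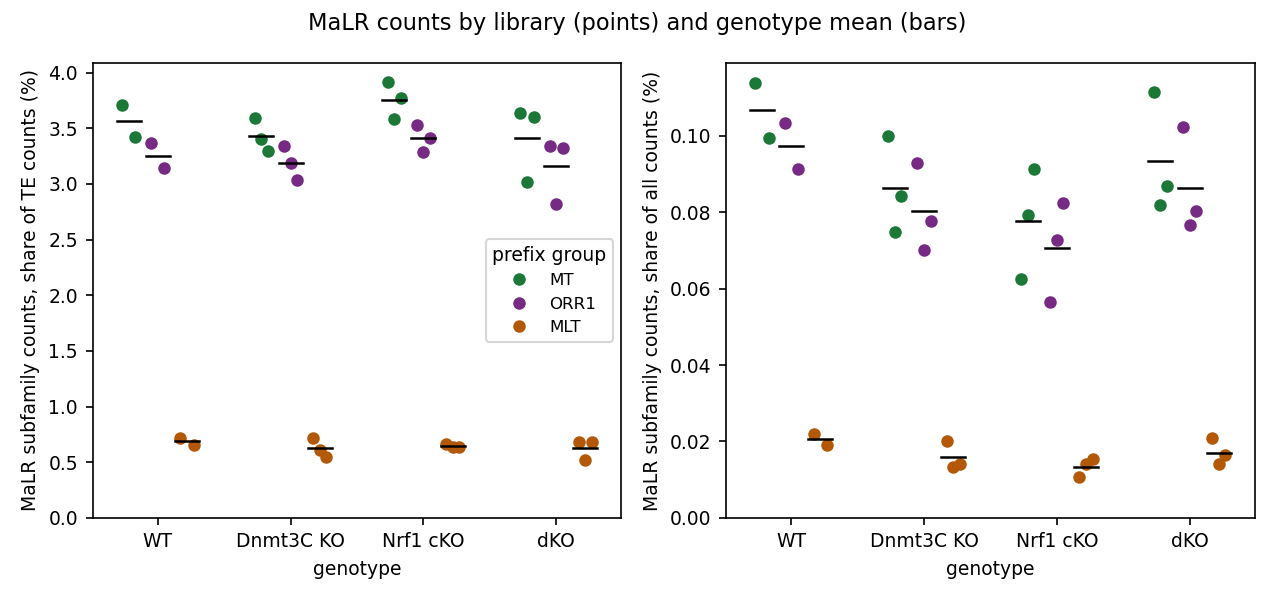
MaLR counts by library. The left panel gives the counts on MT, ORR1 and MLT subfamilies as a percentage of TE counts and the right panel as a percentage of all counts, with 1 point per library and a bar at each genotype's mean. On the left the genotypes sit close together, near 3.57% for MT in WT, and on the right every Nrf1 cKO point for MT, ORR1 and MLT lies below both WT points.

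Per annotated length, young rodent subfamilies were among the most densely read. Density was expressed as reads per 1000000 TE reads per annotated Mb, averaged over the 11 libraries. Among LTR subfamilies, ORR1A0 was the densest at 2561 ± 273 (SD, n = 11), followed by MLT1K at 1167 ± 200, MTA_Mm at 888 ± 54.7, MLT1G1 at 872 ± 126 and ORR1A3 at 852 ± 97.3. ORR1A0 stood apart from its successor by several times the spread, whereas MTA_Mm, MLT1G1 and ORR1A3 did not differ beyond theirs. ORR1A0 rested on few copies, since 28 copies in a window at the end of chromosome 2, described with the windows, took 64.2% of its reads. MLT1K, an old subfamily, owed its rank to a single copy, MLT1K_dup2491, which took 51.1% of its reads. ORR1A3 drew 26.1% of its reads from ORR1A3_dup1795. Some older rodent LTRs were less dense than MTA_Mm and ORR1A3: MTB was at 588 ± 65.8, MTC at 541 ± 51.9, MTD at 491 ± 46.5, MTEa at 413 ± 44.0 and ORR1E at 372 ± 40.8. The order by age was not kept throughout. ORR1A1, of the young ORR1A branch, was at 497 ± 45.5, below MTB and MTC. ORR1B1 was at 667 ± 92.5 and ORR1A2 at 635 ± 58.3. The share of annotated copies detected was 21.6% for MTA_Mm and 20.3% for ORR1A0, against 13.2% for MTD, 11.2% for ORR1E and 10.8% for MTEa, and MLT1G had the lowest among the LTR subfamilies compared, at 8.26%. By genotype, ORR1A0 was at 2318 ± 61.1 in WT, 2430 ± 187 in the Dnmt3C KO, 2930 ± 175 in the Nrf1 cKO and 2484 ± 89.0 in the dKO, and MTA_Mm was at 870 ± 41.3, 894 ± 30.6, 926 ± 36.5 and 855 ± 87.6 (SD, n = 2 for WT and 3 for the others). ORR1A0 was thus highest in Nrf1 cKO relative to all TE reads, a difference seen on this scale alone and not tested. Near-identical copies share reads, and reads of young copies can be split among their relatives, so a subfamily's density is firmer than that of a single young copy.

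**Figure D2:**
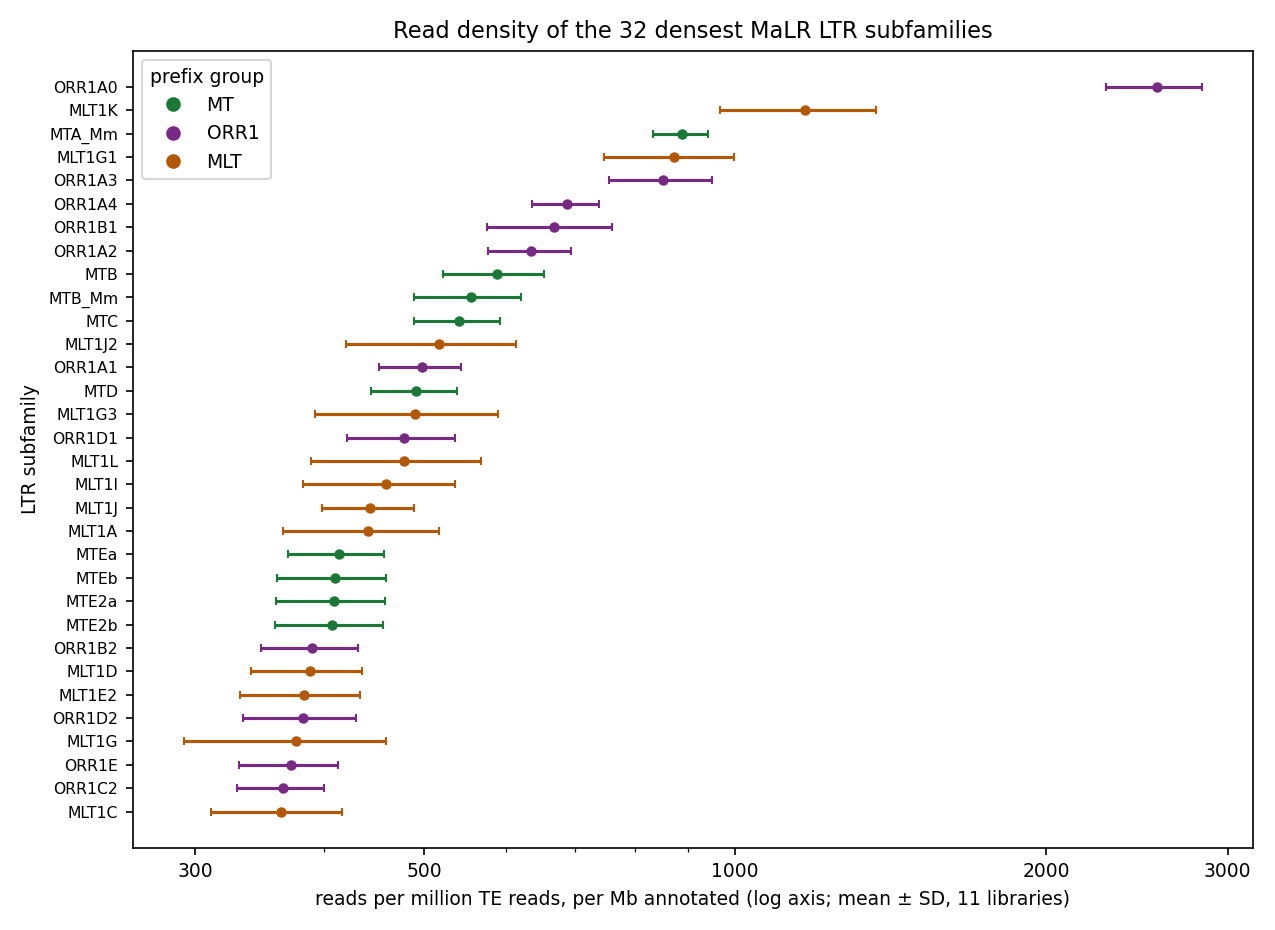
Read density of the 32 densest MaLR LTR subfamilies. The x axis, on a log scale, gives reads per 1000000 TE reads per annotated Mb as mean ± SD over 11 libraries. ORR1A0 stands alone at 2561, and MTA_Mm, MTB, MTC, MTD and MTEa descend in that order from 888 to 413.

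The place of a copy relative to genes went with its detection. Of annotated MaLR copies in an intron on the gene's own strand, 31.6% were detected, against 14.6% of those overlapping an exon on the same strand, 12.6% of those on the opposite strand of a gene and 8.25% of those outside genes. Same-strand introns held 14.3% of the annotated copies but 43.1% of MaLR reads. Copies outside genes held 61.5% of the annotated copies and 39.1% of the reads, copies opposite to a gene 11.6% and exonic copies 6.26%. Per annotated kb, summed over the 11 libraries, same-strand exonic copies had 25.8 reads, same-strand introns 16.4, the opposite strand 2.84 and copies outside genes 3.51. For MLT the order of the first pair was the other way, at 3.01 in exons and 10.8 in introns. MLT differed from the rodent groups in its exonic copies, which held 1.03% of MLT reads against 6.19% of MT and 7.39% of ORR1 reads. These shares are descriptions, with gene models of GENCODE M21.

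**Figure D3:**
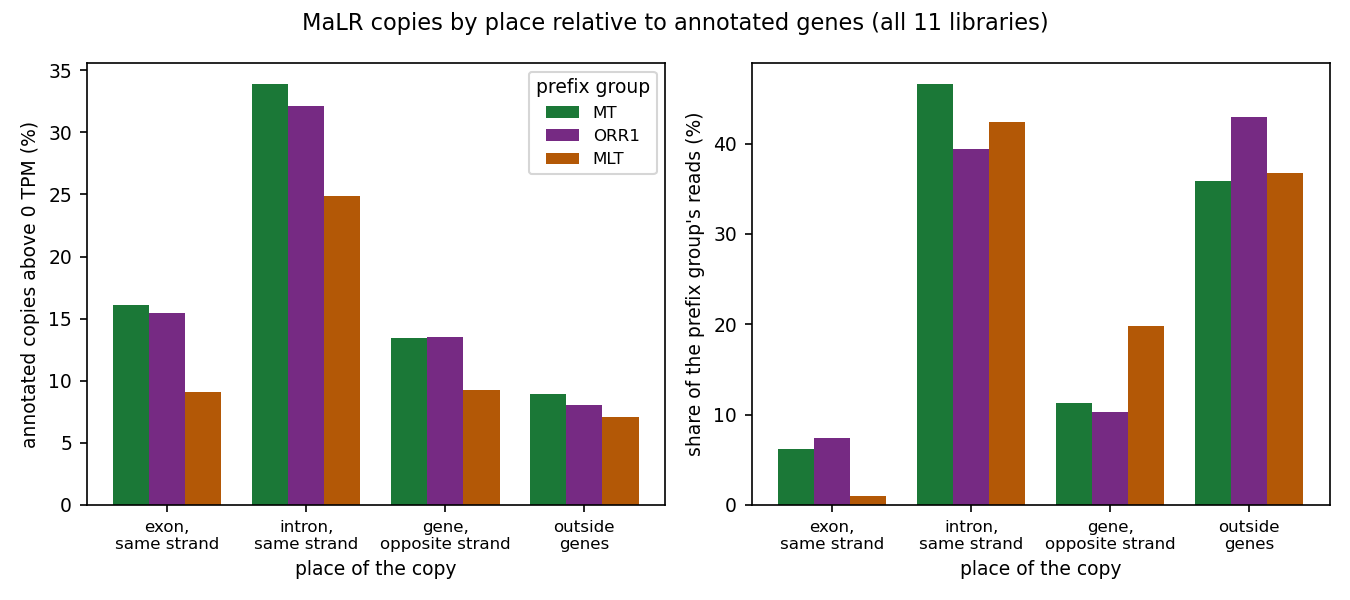
MaLR copies by place relative to genes. The left panel gives the percentage of annotated copies above 0 TPM and the right panel the percentage of each prefix group's reads, both over the 11 libraries, for MT, ORR1 and MLT. Same-strand introns have the tallest bars on the left for all 3 groups, 33.9% for MT, 32.1% for ORR1 and 24.8% for MLT.

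MaLR RNA was concentrated on few copies. Of the detected copies, 29520 (51.3%) were above 0 in 1 library only and 1597 in all 11. The top 100 copies by mean TPM held 15.2% of MaLR TPM and 18.5% of MaLR reads, and the top 100 by reads held 23.5% of MaLR reads. Only 350 copies averaged 20 reads or more, 1829 averaged 5 or more, and 48862 averaged under 1 read. At such depths a difference on most single copies was not detectable. Short copies were overweighted on the TPM scale: the 692 copies under 50 bases held 5.32% of MaLR TPM and 0.461% of MaLR reads.

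A pair of genome windows held a large part of the reads on internal sequences. A window at the end of chromosome 2, chr2:174000001-180000000, held 358 detected copies and 11.9% of all MaLR reads, 78.0% of them on internal sequences, which made up 30.1% of the reads on internal MaLR sequences of the genome. It has 63 protein-coding genes, of which 11 carry numbered Zfp names, and 72.9% of its MaLR reads lay outside genes. It took 80.9% of ORR1A0-int reads, 57.3% of MTA_Mm-int reads and 64.2% of ORR1A0 reads of the genome. A window on chromosome 13, chr13:74000001-76000000, took 3.12% of MaLR reads, 8.58% of internal reads and 63.3% of ORR1A4-int reads. Both windows, and the copies named in them, were chosen after their values were seen. The share of MaLR reads from the chromosome 2 window was 9.85 and 11.9% in WT, 10.1, 12.7 and 12.1% in the Dnmt3C KO, 13.4, 12.9 and 14.7% in the Nrf1 cKO and 10.9, 13.6 and 11.6% in the dKO. The Nrf1 cKO libraries lay above both WT libraries and overlapped dKO. Some copies of the chromosome 2 window had nearly the same reads: ORR1A0-int_dup36, in an intron of Zfp973, and ORR1A0-int_dup58, outside genes, had the same number of reads in 7 of 11 libraries, 471 each in WT replicate 1 and 377 each in Dnmt3C KO replicate 1 among them, so the reads of one cannot be assigned to it alone.

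Of the 10 most abundant copies by TPM, 4 lay in same-strand introns, 2 in same-strand exons, 2 on the opposite strand of a gene and 2 outside genes. MTD_dup12126 led with a mean of 782 TPM, but it is 12 bases long and had between 8 and 58 reads per library. ORR1B1_dup12521, in an intron of Glod4, averaged 243 TPM, with 336 and 343 reads in WT, 284, 408 and 275 in the Dnmt3C KO, 296, 362 and 228 in the Nrf1 cKO and 366, 281 and 382 in the dKO. MTC-int_dup1399, in an intron of the noncoding gene AU020206, averaged 207 TPM. ORR1B1_dup14222, in an exon of Tmem254c, averaged 201 TPM, with 586 reads in Dnmt3C KO replicate 2 and between 189 and 341 in the other libraries. ORR1B1_dup14216, in an exon of the paralog Tmem254a, averaged 123 TPM, and the split of reads between the Tmem254 paralogs is uncertain. ORR1C2_dup11843 (Ston1 intron), MTD_dup4658 (opposite strand of Kif5c, a kinesin heavy chain gene), MTC_dup11656 and MLT1K_dup1080 (Zim1 intron) followed with between 131 and 189 TPM. ORR1A3_dup1795, outside genes, was at 78.4 and 87.0 TPM in WT, 81.9, 179 and 109 in the Dnmt3C KO, 207, 163 and 198 in the Nrf1 cKO and 129, 183 and 182 in the dKO. All 3 Nrf1 cKO libraries exceeded both WT libraries and overlapped both other genotypes. Its log2 fold change on the log2(TPM + 1) scale was 1.18 (SE 0.35) for Nrf1 cKO over WT, with an adjusted p of 0.604 by limma.

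No MaLR subfamily was called in any comparison at an adjusted p under 0.01 by edgeR's quasi-likelihood test. The counts below are therefore read with the number at an unadjusted p under 0.05 and with the background over all features. The background shares of features and of TE subfamilies come from edgeR and are not given for DESeq2. In Dnmt3C KO over WT, edgeR called 0 of 84 MaLR subfamilies and 0.0% of all 21664 features, and DESeq2 called 0 MaLR subfamilies. Unadjusted, 9 were lower and 0 higher (11 lower by DESeq2), where 14.3% of TE subfamilies were lower. All 20 MT and all 28 ORR1 subfamilies tested, and 32 of 36 MLT subfamilies, had a fitted log2 fold change below 0. The MaLR median was -0.31, near the median of -0.34 over the 880 TE subfamilies tested. MTEb had the smallest p, with 32.1 and 30.2 CPM in WT, 26.8, 19.1 and 19.7 in the Dnmt3C KO, 17.2, 18.9 and 22.2 in the Nrf1 cKO and 29.0, 21.2 and 23.1 in the dKO. Both WT libraries were its highest. Its log2 fold change in Dnmt3C KO over WT was -0.53 (SE 0.18, adjusted p 0.884 by edgeR). MTE-int followed with -0.46 (SE 0.18) and MTE2a with -0.45 (SE 0.18). With the TE total as library size, the MaLR median was -0.07 in place of -0.31.

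In Nrf1 cKO over WT, the fitted values of all 84 MaLR subfamilies tested were below 0, with a median of -0.54. Of these subfamilies, 0 were called by edgeR or DESeq2, and edgeR called 0.0% of all 21296 features. The paper, with DESeq2, reports protein-coding genes changed in both directions in this comparison. Unadjusted, 27 were lower and 0 higher (23 lower by DESeq2), against 28.4% of all TE subfamilies, whose median was -0.56. By prefix, 6 of 20 MT, 12 of 28 ORR1 and 9 of 36 MLT subfamilies were among the 27. The smallest p belonged again to MTEb, at -0.70 (SE 0.19, adjusted p 0.784), then to MLT1A1 at -0.78 (SE 0.24) and ORR1E at -0.62 (SE 0.20), all by edgeR. ORR1E had 67.7 and 59.6 CPM in WT, 60.5, 43.5 and 44.9 in the Dnmt3C KO, 32.9, 44.6 and 48.4 in the Nrf1 cKO and 64.7, 41.9 and 49.3 in the dKO, so the Nrf1 cKO libraries lay below WT but overlapped both other genotypes. With the TE total as library size, the median was -0.05 and 0 subfamilies had an unadjusted p under 0.05. Scaled to equal germ cell markers, which were lower in Nrf1 cKO, the median turned to 0.75, with 0 called. The part of germ cell number in these values was not tested.

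In dKO over WT, 0 of 84 were called by edgeR and by DESeq2 (0.0% of 21488 features). At an unadjusted p under 0.05 there were 0 by edgeR, where 1.47% of TE subfamilies were lower, and 1 lower by DESeq2. The median was -0.21, and MTEb came first at -0.37 (SE 0.18, adjusted p 1.00). In dKO over Dnmt3C KO, which compares Nrf1 deletion without DNMT3C, 0 of 84 were called by either tool (0.0% of 20783 features), the median was 0.13, and 1 subfamily was higher at an unadjusted p under 0.05 by either tool, against 3.17% of TE subfamilies. This was ORR1A0-int, with 79.0, 77.7 and 87.8 CPM in Dnmt3C KO and 100.2, 101.4 and 93.2 in the dKO, which did not overlap. Its log2 fold change was 0.27 (SE 0.10, adjusted p 0.675 by edgeR), and its WT libraries, at 89.1 and 102.3 CPM, overlapped dKO. In dKO over Nrf1 cKO, 0 of 83 were called by either tool (0.0% of 20381 features), the median was 0.30, and 4 were higher unadjusted (6 by DESeq2), against 9.67% of TE subfamilies. MLT1K led these with 0.60 (SE 0.20, adjusted p 1.00 by edgeR), at 9.62, 12.6 and 11.9 CPM in Nrf1 cKO and 16.1, 14.5 and 20.8 in the dKO. ORR1D1-int (0.70, SE 0.27) and MLT1N2 (1.11, SE 0.46) followed, the latter at 0.325 to 1.55 CPM over the libraries. In Dnmt3C KO over Nrf1 cKO, 0 of 84 were called by either tool (0.0% of 20642 features), with a median of 0.20 and, at an unadjusted p under 0.05, 0 by edgeR (6.4% of TE subfamilies were higher) and 1 by DESeq2. Scaled to equal germ cell markers, 43 were called lower, as were 59.4% of all features. Comparisons with WT share the 2 WT libraries.

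The effects of the deletions were also compared with each other over all libraries. The interaction, which asks whether Dnmt3C loss acts differently with and without Nrf1, had 0 of 84 MaLR subfamilies called by either tool (0.0% of 22594 features). Unadjusted, 27 had a higher value and 0 a lower one (28 by DESeq2), against 28.5% of TE subfamilies, with a median of 0.60 in MaLR and 0.68 over TE subfamilies. MTEb had 0.86 (SE 0.26, adjusted p 0.895 by edgeR) and MLT1K 0.85 (SE 0.28). With the TE total as library size, this median was -0.00. The average effect of Nrf1 deletion over both Dnmt3C backgrounds had a median of -0.20, 0 called by edgeR and by DESeq2 (0.00443% of all features) and 2 lower unadjusted against 5.97% of TE subfamilies, MLT1J-int (-0.84, SE 0.38) and MLT1J (-0.38, SE 0.18), both under 10 CPM. Scaled to equal germ cell markers, 7 were called higher, as were 38.6% of all features. The average effect of Dnmt3C loss had a median of -0.00, 0 called by edgeR and by DESeq2 (0.0% of all features) and 0 at an unadjusted p under 0.05 by either tool, where edgeR had 3.43% of TE subfamilies higher.

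**Figure D4:**
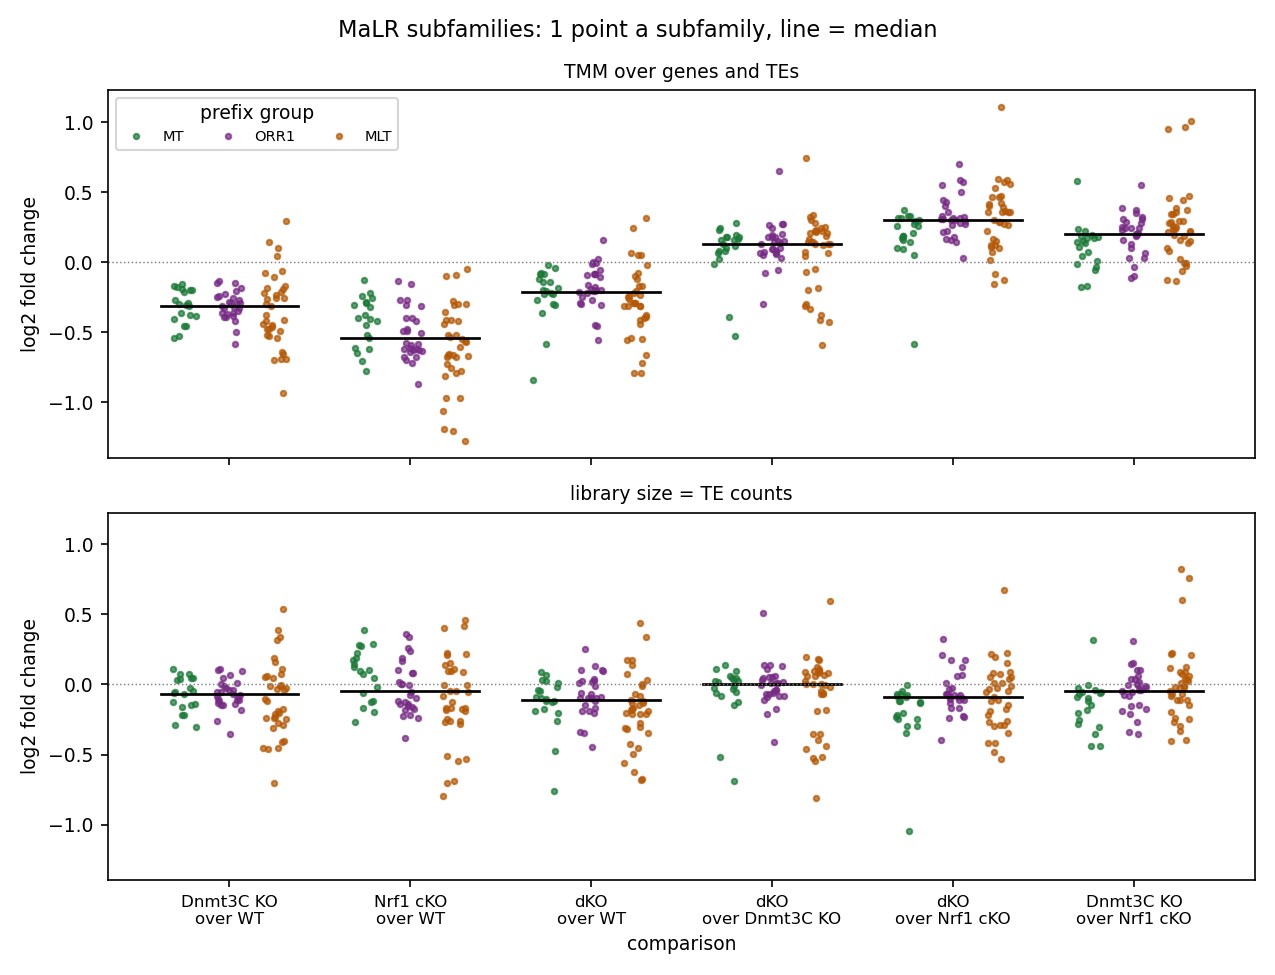
Log2 fold changes of MaLR subfamilies in the 6 pairwise comparisons. Each point is a subfamily, coloured by prefix, and the line is the MaLR median; the upper panel uses TMM over genes and TEs and the lower panel the TE total as library size. The upper medians run from -0.54 (Nrf1 cKO over WT) to 0.30 (dKO over Nrf1 cKO), and the lower ones lie between -0.11 and 0.00.

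The subfamilies with the most counts moved within these limits. MTA_Mm-int, the internal sequence of the youngest MT branch, and MTD had the most, at similar levels. MTA_Mm-int was at 181 ± 6.81 CPM in WT (SD, n = 2), 162 ± 5.22 in the Dnmt3C KO, 157 ± 27.2 in the Nrf1 cKO and 177 ± 13.7 in the dKO (SD, n = 3 each). MTD was at 203 ± 24.7, 159 ± 25.5, 141 ± 32.9 and 178 ± 36.0 CPM in the same order, and MTA_Mm at 152 ± 7.73, 134 ± 15.5, 117 ± 18.6 and 141 ± 18.1. ORR1B1, the ORR1 LTR subfamily with the most counts, was at 92.4 ± 5.34, 84.9 ± 8.61, 77.8 ± 2.41 and 87.8 ± 10.8 CPM. Of MLT, MLT1D was at 23.1 ± 1.97, 17.1 ± 3.10, 15.4 ± 3.92 and 18.7 ± 4.73 CPM. In each of these 5 the WT mean was the highest of the 4, and no difference passed the test.

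Single copies were first tested as limma fits on log2(TPM + 1). The filter of at least 5 TPM in at least 2 libraries kept 3835 of the 57560 detected MaLR copies among 89281 TE copies. limma called 0 MaLR copies in each of the 9 comparisons, where it called 0.0% of all TE copies in 8 and 0.00224% in the average effect of Dnmt3C loss. In pairwise comparisons, limma on TPM also missed large changes planted in simulated data, so its lack of calls there says little. At an unadjusted p under 0.05, between 93 and 161 MaLR copies stood in each comparison, 61 higher and 84 lower for Dnmt3C KO over WT (2.12% and 2.78% of all TE copies) and 72 higher and 89 lower for Nrf1 cKO over WT (1.62% and 3.71%). With WT replicate 1 left out limma called 69 of the 3835 MaLR copies lower in Dnmt3C KO over WT, 129 in Nrf1 cKO over WT and 21 in dKO over WT, against 2.37%, 4.65% and 0.651% of all TE copies. With WT replicate 2 left out it called 123, 156 and 93 lower, against 3.62%, 5.88% and 2.94%. In these fits the lone WT library is assumed to vary like the others, and 0 MaLR copies were called higher. edgeR on the recovered reads, added after seeing the data, called 0 MaLR copies in 8 comparisons and 2 of 1599 in the average effect of Dnmt3C loss, both higher, against 0.38% of 22610 TE copies. In Dnmt3C KO over WT it called 0 of 1210, with 33 higher and 21 lower unadjusted (4.89% and 1.15% of TE copies), and in Nrf1 cKO over WT 0 of 1143, with 30 higher and 6 lower (1.67% and 1.84%). Its background of calls was 0.0% of TE copies in 7 of those 8 comparisons and 0.178% in Dnmt3C KO over Nrf1 cKO.

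The 2 copies called were read almost only where DNMT3C was missing. ORR1A2-int_dup471, an internal ORR1A2 sequence outside genes at chr5:47971685-47973540 on the plus strand, had 0 and 1 reads in WT, 26, 11 and 12 in the Dnmt3C KO, 0 in each Nrf1 cKO library and 25, 12 and 5 in the dKO. MTA_Mm_dup15597, an LTR on the unplaced scaffold JH584304.1 at bases 32789 to 33184, plus strand and outside genes, had 1 and 1 reads in WT, 23, 10 and 15 in the Dnmt3C KO, 0 in each Nrf1 cKO library and 18, 15 and 5 in the dKO. At both, all 6 libraries without DNMT3C were above all 5 others. Both copies passed the filter on low reads only through the libraries without DNMT3C and are named because they were called, so the folds that follow describe them and support nothing further. In reads per 1000000 TE reads, ORR1A2-int_dup471 was 69.0-fold higher in the libraries without DNMT3C (95% exact interval 12.1 to 2753, from 91 against 1 reads) and MTA_Mm_dup15597 32.6-fold higher (8.75 to 273, from 86 against 2 reads). The intervals cover counting error only, and reads are not independent molecules. The adjusted p by edgeR was 0.00935 for ORR1A2-int_dup471 and 0.00699 for MTA_Mm_dup15597. Leaving out 1 library at a time, each passed 0.01 in 1 of 11 fits, the one without dKO replicate 3, with adjusted p between 0.00589 and 0.0511 for the first and between 0.00459 and 0.0480 for the second. By limma, MTA_Mm_dup15597 had an adjusted p of 0.540, and ORR1A2-int_dup471 did not pass the TPM filter.

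ERVK copies beside them were also read mostly in libraries without DNMT3C. IAPEz-int_dup1989, part of an IAP provirus at chr5:47969773-47970989, lies 695 bases from ORR1A2-int_dup471 on the opposite strand. It had 0 reads in both WT and all 3 Nrf1 cKO libraries, 118, 45 and 26 in the Dnmt3C KO and 88, 19 and 5 in the dKO. Beside MTA_Mm_dup15597, RMER17C_dup6478 lies 3570 bases upstream on the same strand, with 2 and 4 reads in WT, 18, 9 and 8 in the Dnmt3C KO, 0, 1 and 1 in the Nrf1 cKO and 22, 10 and 12 in the dKO. A further copy chosen after its values were seen, ORR1D1_dup2656 at chr2:169029985-169030102, had 0 reads in all 5 libraries with DNMT3C, 12, 9 and 8 in the Dnmt3C KO and 7, 7 and 1 in the dKO, at least 11.1-fold higher against a floor of 3 reads over the group. Its ERVK neighbour RLTR10C_dup256, 2616 bases upstream, had 1 and 0 reads in WT, 18, 10 and 10 in the Dnmt3C KO, 0, 2 and 0 in the Nrf1 cKO and 4, 8 and 6 in the dKO. The pattern was not limited to ERVK neighbours. B1_Mur1_dup5098, a SINE 170 bases upstream of ORR1D1_dup2656 on the same strand and nearer than RLTR10C_dup256, had 0 and 1 reads in WT, 12, 3 and 5 in the Dnmt3C KO, 0 in each Nrf1 cKO library and 15, 7 and 1 in the dKO. B1_Mus2_dup70697, a SINE 2702 bases downstream of MTA_Mm_dup15597, had 0 reads in both WT libraries, 5, 0 and 2 in the Dnmt3C KO, 0, 1 and 0 in the Nrf1 cKO and 13, 4 and 1 in the dKO, so its genotypes overlapped. These neighbours were picked after the values were seen. Whether one transcript runs through both copies of a pair was not tested.

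**Figure D5:**
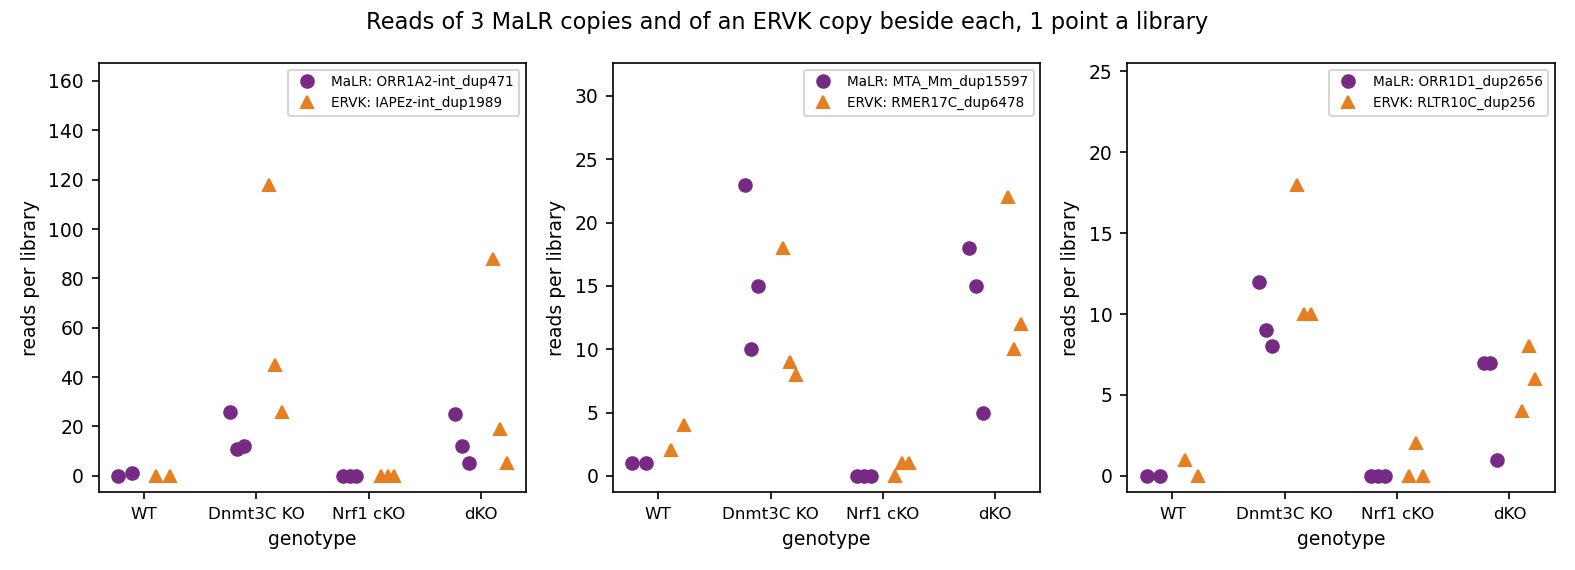
Reads per library of 3 MaLR copies (circles) and an ERVK copy beside each (triangles), by genotype. All 3 MaLR copies have 0 or 1 reads in each WT and Nrf1 cKO library and reach 26, 23 and 12 reads in Dnmt3C KO; each ERVK neighbour has more reads in every Dnmt3C KO and dKO library than in any WT or Nrf1 cKO library.

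Copies whose libraries separated fully by genotype were counted among the 1829 MaLR copies with a mean of at least 5 reads. On the TPM scale, 6 (0.328%) had all 6 libraries without DNMT3C above all 5 others, against 0.94% of 25522 TE copies and 6.63% of 2278 ERVK copies. In the other direction, 5 MaLR copies (0.273%) had those libraries below all others, against 0.302% of TE copies. For Nrf1 deletion, 7 MaLR copies (0.383%) lay above and 4 (0.219%) below, against 0.29% and 0.184% of TE copies. The MaLR shares for Nrf1 were near the background and the share for higher values without DNMT3C was below it. An ERVK copy with a mean of at least 5 reads lay within 10 kb of 2 of the 6 copies, against 344 of the 1829 (18.8%). For ERVK copies that separated in the same way, it was 2 of the 6 against 5 of the 1829. There the MaLR and the ERVK copies were picked by the same values, so these counts describe them and support nothing further.

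Of the 6 copies above, the 4 not yet given were MTC_dup2948 (Myef2 intron), MTA_Mm_dup2025 (Bub1 intron), ORR1B1_dup16448 and ORR1C2_dup10579 (Slain1 intron). Their differences were smaller: MTC_dup2948 had 14 and 18 reads in WT, 19, 22 and 18 in the Dnmt3C KO, 4, 8 and 6 in the Nrf1 cKO and 24, 23 and 18 in the dKO. Bub1 encodes a spindle checkpoint kinase of dividing cells, and MTA_Mm_dup2025 in its intron had 11 and 8 reads in WT, 12, 12 and 10 in the Dnmt3C KO, 1, 10 and 5 in the Nrf1 cKO and 20, 13 and 10 in the dKO. Of the 5 below, MTEa_dup9244, outside genes at chr8:19699945-19700120, had the most reads, 35 and 46 reads in WT, 14, 10 and 3 in the Dnmt3C KO, 16, 21 and 31 in the Nrf1 cKO and 7, 5 and 7 in the dKO. The average log2 effect of Dnmt3C loss there was -2.03 (SE 0.39, adjusted p 0.0258 by edgeR on recovered reads) and -2.06 (SE 0.45, adjusted p 0.390 by limma). ORR1E_dup1953 (Itih5 intron), MTB_Mm_dup373 (Gm10516 intron), ORR1A2-int_dup878 (Cwf19l2 intron) and MTD_dup47542 were the others.

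Copies separated by Nrf1 status differed by unequal amounts. Among the 7 above, MTEb_dup8000, outside genes, was at 23.7 and 25.8 TPM in WT, 24.8, 14.04 and 14.7 in the Dnmt3C KO, 93.4, 25.8 and 94.4 in the Nrf1 cKO and 30.2, 41.8 and 69.6 in the dKO, from 5 to 25 reads a library. The average log2 effect of Nrf1 deletion there was 1.297 (SE 0.42, adjusted p 0.956 by limma). ORR1D1_dup9487, in an intron of Gm20388, was at 3.34 and 4.54 TPM in WT, 1.80, 2.72 and 4.29 in the Dnmt3C KO, 21.5, 6.25 and 6.40 in the Nrf1 cKO and 10.4, 12.2 and 6.32 in the dKO. At ORR1D1_dup9487, Nrf1 cKO replicate 1 stood far above the other libraries. At MTEb_dup8000, Nrf1 cKO replicates 1 and 3 and dKO replicate 3 were the highest, and the lowest Nrf1 cKO library of MTEb_dup8000 was barely above the highest WT library. MTB-int_dup82, in an intron of 3300002I08Rik, was the deepest, at 20.7 and 18.5 TPM in WT, 18.7, 20.98 and 21.2 in the Dnmt3C KO, 33.9, 28.6 and 31.0 in the Nrf1 cKO and 23.5, 25.1 and 27.0 in the dKO. Its log2 fold change for Nrf1 cKO over WT was 0.64 (SE 0.27, adjusted p 0.804 by limma). In reads, not scaled to depth, this copy had 143 and 108 in WT and 99, 136 and 112 in the Nrf1 cKO, which overlapped. TPM is scaled to TE copies only, and the TE share of all counts was lower in Nrf1 cKO than in WT. Of the 4 below, ORR1D-int_dup755 in an intron of Gm46430 had 6 and 9 reads in WT, 13, 9 and 13 in the Dnmt3C KO, 1 in each Nrf1 cKO library and 1, 4 and 1 in the dKO, with an average log2 effect of Nrf1 deletion of -2.34 (SE 0.71, adjusted p 1.00 by edgeR on recovered reads). Also below, ORR1B1-int_dup186 in an intron of Cop1, a ubiquitin ligase gene, had 15 and 15 reads in WT, 17, 13 and 21 in the Dnmt3C KO, 6, 7 and 7 in the Nrf1 cKO and 11, 8 and 4 in the dKO. All these copies were chosen after their values were seen, and edgeR and limma called none of the 11.

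Copies that hold a transcript start in GENCODE were 213 of the detected copies and took 1.27% of MaLR reads. The copies named here, with many reads in this set, were chosen after their values were seen. MTA_Mm-int_dup2151, at a transcript start of Hexdc, a hexosaminidase gene, had 117 and 123 reads in WT, 215, 192 and 141 in the Dnmt3C KO, 146, 146 and 121 in the Nrf1 cKO and 193, 177 and 174 in the dKO. In TPM, WT was lowest, at 17.9 and 22.4, and the 9 mutant libraries lay between 32.3 and 53.0. Its log2 fold change for Dnmt3C KO over WT was 0.90 (SE 0.27, adjusted p 0.825 by limma). At 3 further copies of the set, WT overlapped the mutant libraries on this scale. ORR1A4-int_dup1279 was at 45.2 and 54.96 TPM in WT and between 45.2 and 66.6 in the mutant libraries, and MTC-int_dup2039 (Mfsd4b4) at 11.7 and 19.1 in WT and between 13.2 and 19.7 in the mutant libraries. ORR1A4-int_dup1205 (Senp7) was at 2.95 and 3.79 TPM in WT and between 1.36 and 3.57 in the mutant libraries.

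MaLR reads inside cell type marker genes were few. Of the 28 germ cell marker genes, 9 hosted 31 same-strand MaLR copies with 267 reads in all, 0.0392% of MaLR reads. Of the 12 Sertoli cell marker genes, 4 hosted 12 copies with 956 reads, 0.14%. In reads per 1000000 TE reads, the copies in germ cell markers had 36.4 and 14.8 in WT and 11.4, 13.6 and 18.0 in the Nrf1 cKO. They had 45.8, 40.3 and 19.2 in the Dnmt3C KO and 52.2, 27.8 and 21.4 in the dKO. Each mutant genotype overlapped WT, and Nrf1 cKO lay below Dnmt3C KO and dKO.

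Relatives and regulators were read for comparison. MERVL-int and MT2_Mm, the internal sequence and LTR of the ERVL element related to MaLR, were not called in any comparison by edgeR. MERVL-int had 59.9 and 51.1 CPM in WT, 40.8, 33.6 and 38.9 in the Dnmt3C KO, 35.5, 34.5 and 47.7 in the Nrf1 cKO and 53.4, 45.3 and 48.6 in the dKO, so both WT libraries were above Dnmt3C KO and Nrf1 cKO. Its log2 fold change in Dnmt3C KO over WT was -0.57 (SE 0.15, adjusted p 0.692), and that of MT2_Mm -0.52 (SE 0.14, adjusted p 0.788), both by edgeR. Of 38 genes of TE silencing and MERVL regulation, among them Trim28, the corepressor of KRAB zinc finger proteins, Setdb1, the H3K9 methyltransferase, and Dnmt1, edgeR and DESeq2 called 0 in any comparison. At an unadjusted p under 0.05 there were at most 6 of 38 by either tool, in Dnmt3C KO over Nrf1 cKO, where by edgeR 4 were higher and 2 lower against 6.27% and 4.32% of all features. The list's median log2 fold change lay between -0.09 (Nrf1 cKO over WT) and 0.10 (dKO over Nrf1 cKO) in the pairwise comparisons.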

How the data were processed

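Poly-A RNA of whole testes was sequenced by the authors and aligned to GRCm38 with STAR 2.7.3a. The deposited counts of reads per gene and TE subfamily came from TEtranscripts with multi-mapped reads shared (stranded, reverse), and the deposited TPM per TE copy came from TElocal, scaled to TE copies only. The authors' own fold changes and p-values, from DESeq2 1.44.0, were not used, and 0 columns belonged to no sample. Members and lists were chosen with earlier results of these data known. The 6 pairwise count tables were joined, with 0 conflicts between them.

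Counts were tested with edgeR 4.0.16 (quasi-likelihood, TMM) in R 4.3.3 over all features, adjusted by Benjamini-Hochberg, with a call at an adjusted p under 0.01 as in the study. TPM were tested with limma 3.58.1 on log2(TPM + 1) for copies of at least 5 TPM in at least 2 libraries. Each pairwise comparison was fitted on its own libraries, and the interaction and average effects on all 11. Reads per copy were recovered as TPM times length over the step of each library, and edgeR on them was added after seeing the data. DESeq2 1.42.0, other scalings, filters, a pseudocount of 0.1, leaving out libraries and a replicate block were the alternatives. edgeR and limma fits were tested on simulated data with known changes in 3 comparisons. edgeR recovered most changes of well-read features, while limma on TPM called none in the pairwise comparisons tried. An absence of limma calls there says little. The planted changes were larger than the MaLR medians reported here, and the simulated spread between libraries was fixed in advance. edgeR's recovery there does not tell whether it would find changes of the size seen.

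Named subfamilies were the 6 with the highest mean CPM of each prefix and the 3 with the smallest p of each comparison; named copies were the 10 with the highest mean TPM and any called, and others are stated as chosen after their values were seen. Gene places came from GENCODE M21 with bedtools 2.31.1 and promoter sequences from RefSeq on GRCm38.p6.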

Additional observations from a re-analysis of the deposited data

Results flagged for a closer look

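The MaLR share of all counts lay below the WT mean in all 3 Dnmt3C KO libraries and above the Nrf1 cKO mean in all 3 dKO libraries, although the libraries overlapped in both pairs. With Nrf1 present the mean share changed by -0.0421 percentage points (Dnmt3C KO minus WT), and with Nrf1 deleted by 0.0355 (dKO minus Nrf1 cKO), a difference of 0.0776. For MT the changes were -0.0203 and 0.0158 (difference 0.0361), for ORR1 -0.0170 and 0.0159 (difference 0.0330) and for MLT -0.00474 and 0.00376 (difference 0.00850). Neither change, nor the difference of the shares, was tested. As a share of TE counts, MaLR was lower in both cases, with means of 7.51% (WT) against 7.25% (Dnmt3C KO) and of 7.81% (Nrf1 cKO) against 7.20% (dKO). In the interaction test on subfamily counts, edgeR called 0 of 84 MaLR subfamilies, with 27 higher at an unadjusted p under 0.05 against 28.5% of TE subfamilies. The TE share of all counts was likewise lower in all 3 Dnmt3C KO libraries than in both WT libraries and had a higher mean in dKO than in Nrf1 cKO, with overlap. The germ cell markers overlapped between WT and Dnmt3C KO. Between Nrf1 cKO, at a mean log2 CPM of 3.38, 2.40 and 2.76, and dKO, at 3.96, 3.67 and 2.74, they also overlapped. There dKO replicates 1 and 2 lay above all Nrf1 cKO libraries. The part of either in the result was not tested.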

How the results depend on the processing

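The number of MaLR subfamilies or copies called stayed as reported in 270 of 281 alternatives. Scaled to equal germ cell markers, 43 subfamilies were lower in Dnmt3C KO over Nrf1 cKO, where 59.4% of all features were, and 7 were higher in the average effect of Nrf1 deletion, where 38.6% were. Without a filter on low TPM, limma called 2 of 57560 MaLR copies lower in Nrf1 cKO over WT, against 0.0187% of TE copies. Leaving out 1 library at a time, limma called 0 to 123 copies in Dnmt3C KO over WT, 0 to 156 in Nrf1 cKO over WT and 0 to 93 in dKO over WT, and the counts above 0 all came without a WT library, where 0.651 to 5.88% of all TE copies were called. edgeR on recovered reads called 2 copies in the average effect of Dnmt3C loss, and 0 to 2 when a library was left out.

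As shares of TE counts in place of all counts, the ratio to WT was 0.962 for MT, 0.981 for ORR1 and 0.911 for MLT in the Dnmt3C KO. In the same order it was 1.05, 1.05 and 0.939 for Nrf1 cKO, and 0.958, 0.971 and 0.910 for dKO. With a mean of at least 10 reads, chosen after seeing the data, 2 of 824 copies separated as higher and 4 as lower without DNMT3C (1.38% and 0.385% of TE copies), 3 as higher and 1 as lower with Nrf1 deleted (0.348% and 0.15%). Of 405 alternatives for 27 named subfamily results, 11 reversed, all under scaling to germ cell markers. The log2 values became 0.56 for MTEb, 0.50 for MLT1A1 and 0.68 for ORR1E in Nrf1 cKO over WT, 0.28 for MTEb in dKO over WT, -0.98 for ORR1D1-int, -1.06 for MLT1F2 and -0.89 for MTE2a-int in Dnmt3C KO over Nrf1 cKO, 0.14 for MLT1J-int, 0.71 for MLT1J and 0.80 for MTEb in the average effect of Nrf1 deletion, and -0.065 for MLT1G in that of Dnmt3C loss. This scaling moves all features of a comparison by nearly the same amount, so these reversals follow from its construction.

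Replicate numbers of the sample titles did not pair the libraries: correlations of same-numbered deviations ran from -0.31 to 0.25, both ends from replicates 1 and 2. The count columns give other numbers to replicate 3 of Dnmt3C KO and dKO, so replicate 3 tests no shared number there. With the title numbers as a replicate block, 0 subfamilies were called. With 2 WT libraries and under 1 read on average for 48862 of the detected copies, depth limits what single copies can show.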
